A study of Mus musculus with 6 samples.

Results

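The DNA replication genes described here are 39 genes that license origins, unwind and copy DNA, supply nucleotides or drive entry into S phase. They were chosen by name: a member was any of these 39 symbols, current or former, that named a non-control probe of the array. They occupied 56 of the 41174 probes and 39 of the 27573 gene names on the array. RNA came from tumors grown after subcutaneous inoculation of Hepa1-6, a mouse hepatoma cell line, into female C57Bl/6 mice that carried no other stated treatment or allele. There were 3 tumors taken at day 15 after inoculation (303, 313 and 318) and 3 taken at day 10 (302, 307 and 312). The reference on every array was RNA labelled as blood of an untreated female C57Bl/6 mouse. Each tumor RNA was labelled with Cy5 and hybridised with the Cy3-labelled reference on 1 two-colour Agilent array, without a dye swap, so a dye bias of a probe remains in its ratio. The labels do not tie tumors to mice, and p-values therefore measure the spread between these 6 tumor samples.

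DNA replication begins when the origin recognition complex, with Cdc6 and Cdt1, loads the MCM2-7 helicase onto origins in G1. In S phase Cdc45 and the GINS complex activate the helicase, the primase and polymerases copy both strands, and the sliding clamp, its loader, RPA, a flap nuclease and a ligase serve the fork. Most of these genes are targets of E2F transcription factors, and their RNA is known to be abundant in dividing cells and scarce in resting ones. A ratio to a bulk reference depends on which cells each RNA came from, and in bulk samples fewer cells of a type and less RNA per cell cannot be told apart.

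Cy5 spots well above background made up 52.4% to 58.5% of an array, and Cy3 spots 47.5% to 52.8%. The array of day 10 tumor 312 had lost signal over an area of 17.9% of its spots, which held the probes of Mcm3, Mcm4, Pola2, Prim2, Pcna, Rpa1 and E2f1. Of the 39 genes, 35 had a tumor signal well above background on all 6 arrays and 36 in the reference channel, and Prim2, Rpa1, Ccne2 and E2f1 were so on 5 arrays in the tumor channel. Markers of blood were sparse in the reference: 0 of 11 neutrophil probes, 3 of 14 T-cell probes and 2 of 9 B-cell probes exceeded background in Cy3 on every array, as did 42.9% of the probes of the whole array. Probes of red blood cell genes passed in 7 of 12 cases and those of hepatoma and liver genes in 9 of 14, and Slc4a1 and S100a8, among others, were above background in Cy3 on no array. The reference is therefore called by its label only, and the replication genes' own probes passed in 46 of 56 cases.

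The first comparison asked how the tumors stood against the reference. Replication genes were lower in the tumors. Of the 39 genes, 18 were called lower (log2 ratio of at most -1 and adjusted p under 0.05 in limma's moderated test with Benjamini-Hochberg adjustment over all genes), 0 were called higher and 21 were not called. Among all 16324 genes tested, 9.75% were called lower and 25.5% higher. The median log2 ratio was -0.97 over the 39 genes and 0.22 over all genes. A negative mean was found for 37 of the 39 genes, against 41.5% of all genes tested, and 31 of the 39 were below 0 in every tumor measured. With the size minimum left out, 33 of the 39 were lower and 2, Prim2 and E2f1, were higher, while 32.0% of all genes were lower. Macrophage genes were called higher in 9 of 9 cases (median log2 ratio 5.69), fibroblast and matrix genes in 6 of 7 (6.33) and endothelial genes in 7 of 7 (3.20). Most lists of blood cells were also higher in the tumors than in the reference labelled as blood. T-cell genes were called higher in 7 of 8 cases (4.17) and red blood cell genes in 3 of 4 (3.28). Neutrophil genes were so in 6 of 8 (2.35), B-cell genes in 3 of 5 (1.28) and platelet genes in 1 of 4 (-0.21). The part of all these cells in the ratios of the replication genes was not tested.

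**Figure D1:**
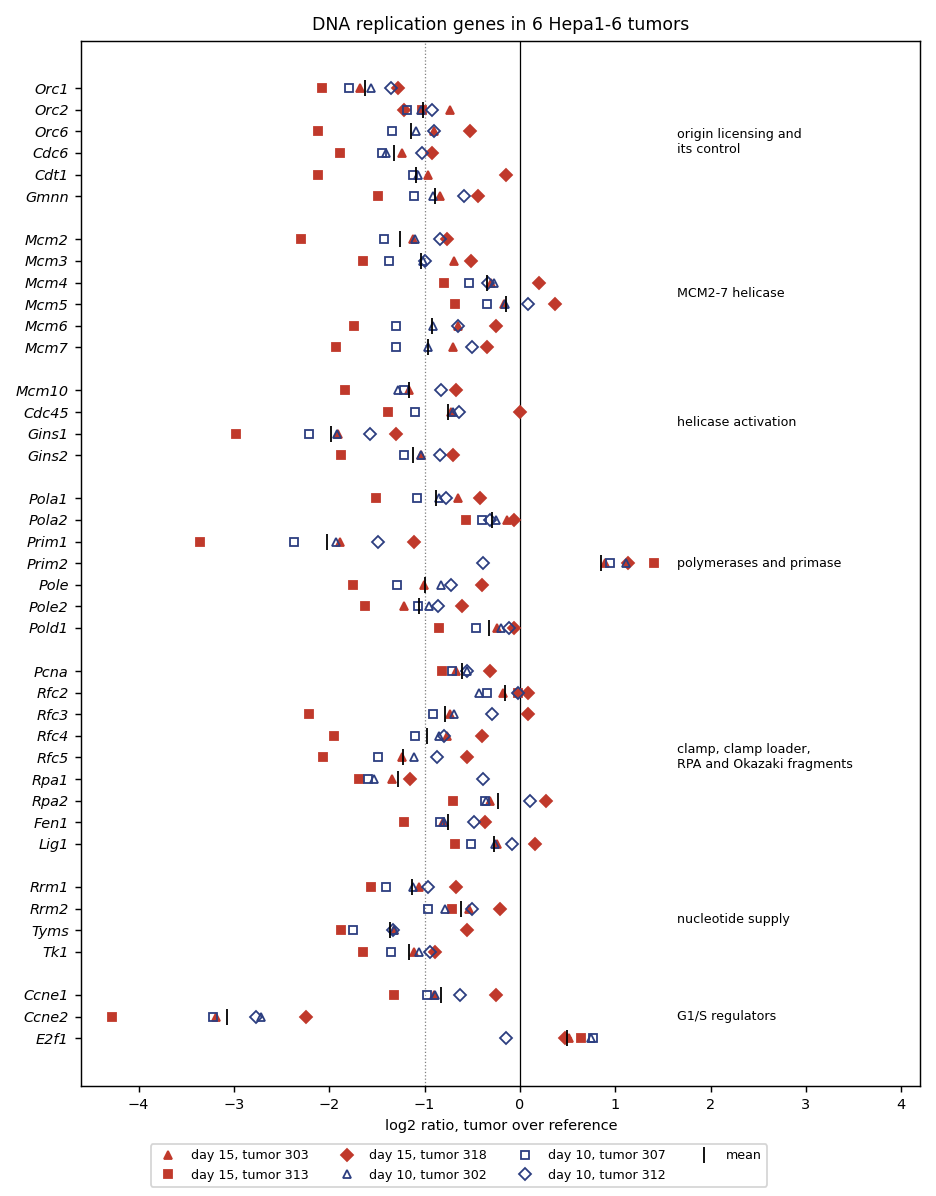
Log2 ratio of tumor over reference for each of the 39 replication genes (rows, grouped by role) in each tumor. Filled red symbols are the 3 day 15 tumors, open blue symbols the 3 day 10 tumors and black ticks the means; the dotted line marks -1. Most genes lie left of 0, the filled squares of tumor 313 mostly at the low end and the filled diamonds of tumor 318 at the high end, with Prim2 and E2f1 right of 0.

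Origin licensing genes were lower almost throughout, with 5 of 6 called lower and a median log2 ratio of -1.12. Orc1, the large ATPase subunit of the origin recognition complex, had log2 ratios of -1.68, -2.08 and -1.28 in day 15 tumors 303, 313 and 318 and of -1.56, -1.79 and -1.35 in day 10 tumors 302, 307 and 312. All 6 lay below -1 and the values of the days overlapped. Orc1 was 3.08-fold lower in tumors than in the reference (mean log2 ratio -1.62 ± 0.30, SD, n = 6, adjusted p = 4.48e-05). Cdc6, the ATPase that joins the complex to load the helicase, had -1.23, -1.89 and -0.92 in the day 15 tumors and -1.40, -1.45 and -1.03 in the day 10 tumors. It was below 0 in every tumor, with a mean of -1.32 ± 0.35 (adjusted p = 0.000191). Its second probe, also above background, averaged 0.39 higher than this one. Orc2, another subunit of the recognition complex, had the narrowest range of the group, with -0.73, -1.03 and -1.21 at day 15 and -1.04, -1.19 and -0.93 at day 10. Its mean of -1.02 ± 0.18 lay just past the threshold (adjusted p = 8.03e-05), and it was -0.99 without tumor 307 and -0.97 without tumor 318. Orc6 averaged -1.15 and Cdt1, the loading factor that brings in the helicase, -1.09 over the 5 tumors with a value, since the spot of Cdt1 on the array of tumor 312 was marked as an outlier. Without tumor 313 these means were -0.91 for Orc6 and -0.83 for Cdt1, both short of the threshold, and Cdt1 also lost its call on the adjusted p without tumor 302 or 307. Gmnn, which encodes the Cdt1 inhibitor geminin, was the gene not called, at -0.90 ± 0.38 (adjusted p = 0.00148).

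The 6 subunit genes of the MCM2-7 helicase ran from -1.26 to -0.15, and 2 of them were called lower. Mcm2 had -1.13, -2.30 and -0.76 in day 15 tumors and -1.10, -1.43 and -0.84 in day 10 tumors. It was 2.39-fold lower in tumors than in the reference (mean log2 ratio -1.26 ± 0.56, adjusted p = 0.00137). Mcm3 averaged -1.04 ± 0.42 (adjusted p = 0.00104) and lost its call at -0.87 without tumor 313, at -0.98 without tumor 307 and at -0.87 as the mean of its probes. At the other end, Mcm5 had -0.16, -0.68 and 0.37 in day 15 tumors and -0.16, -0.34 and 0.08 in day 10 tumors. Its values lay on both sides of 0, and its mean of -0.15 ± 0.36 did not pass (adjusted p = 0.364). Mcm4 averaged -0.34 ± 0.33 (adjusted p = 0.0491, short of the size minimum), Mcm6 -0.92 and Mcm7 -0.96. The products of these genes form a single ring in equal numbers, which does not set the ratio of their RNA to a reference. Mcm2 minus Mcm5, a pair chosen after their values were seen, was -1.11 ± 0.26 and below 0 in 6 of 6 tumors. A dye bias of either probe would enter all 6 arrays alike.

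Genes of helicase activation were called lower in 3 of 4 cases, with a median of -1.14. Gins1, a subunit of the GINS complex that travels with the helicase, had -1.91, -2.98 and -1.30 in the day 15 tumors and -1.92, -2.21 and -1.57 in the day 10 tumors. Every value was below -1, and the mean was 3.94-fold lower than the reference (log2 ratio -1.98 ± 0.58, adjusted p = 0.000228). Gins2, of the same complex, averaged -1.12 ± 0.41 (adjusted p = 0.000701) and was -0.95 without tumor 313, short of the threshold. Mcm10, an activation factor that is not part of the ring, averaged -1.16 ± 0.41 (adjusted p = 0.00059). Cdc45, a further part of the active helicase, averaged -0.76 ± 0.47 (adjusted p = 0.00704), which did not reach the size minimum.

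Among the polymerase and primase genes, 2 of 7 were called lower, the median was -0.88 and both ends of the group were primase subunits. Prim1, the catalytic subunit of primase, had -1.89, -3.35 and -1.11 in day 15 tumors and -1.93, -2.37 and -1.48 in day 10 tumors. It was 4.06-fold lower in tumors (mean log2 ratio -2.02 ± 0.78, adjusted p = 0.000727). Prim2, the large regulatory subunit, had 0.89, 1.41 and 1.14 in the day 15 tumors, and 1.12, 0.94 and -0.39 in day 10 tumors 302, 307 and 312. It was above 0 in 5 of 6 tumors, and the negative value came from the array on which its probe lay in the area of lost signal. Its mean was 0.85 ± 0.63 (adjusted p = 0.00815), short of the size minimum, and without tumor 312 it was 1.09 and called higher (adjusted p = 0.000439). A second Prim2 probe was above background in neither dye on any array, so the ratio rests on a single probe. Prim1 minus Prim2, a pair chosen after the values were seen, was below 0 in 6 of 6 tumors, from -4.76 to -1.09.

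Pole2, the accessory subunit of the leading-strand polymerase epsilon, averaged -1.05 ± 0.35 (adjusted p = 0.000438), and -0.94 without tumor 313, where its call was lost. Pole, the catalytic subunit of the same enzyme, stood just outside the threshold at -0.9997 ± 0.47 (adjusted p = 0.00216). Pola2, the accessory subunit of polymerase alpha, ran from -0.57 to -0.07 with a mean of -0.29 ± 0.18 (adjusted p = 0.0205). Pola1, the catalytic subunit, averaged -0.88, and Pold1, the catalytic subunit of the lagging-strand polymerase delta, -0.32.

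Of the 9 genes for the clamp, its loader, RPA and Okazaki fragment joining, 2 were called lower and the median was -0.75. Rpa1, the large subunit of the single-strand binding protein, had -1.34, -1.69 and -1.15 in day 15 tumors and -1.53, -1.59 and -0.39 in day 10 tumors. The weakest value was that of tumor 312, whose Rpa1 spot lay in the area of lost signal. The mean was -1.28 ± 0.48 (adjusted p = 0.000648), and -1.48 without that tumor. Rpa2, the middle subunit of the same protein, had -0.32, -0.70 and 0.27 in day 15 tumors and -0.36, -0.37 and 0.11 in day 10 tumors. Its values crossed 0 and its mean of -0.23 ± 0.36 did not pass (adjusted p = 0.177). The loader subunit Rfc5 averaged -1.22 ± 0.52 (adjusted p = 0.00129), while Rfc2, of the same loader, had -0.18, -0.02 and 0.08 in day 15 tumors and -0.42, -0.35 and -0.02 in day 10 tumors. Rfc2 averaged -0.15 ± 0.20 (adjusted p = 0.131 in limma), and a second Rfc2 probe, also above background, averaged 0.11. The partner subunits Rfc3 and Rfc4 averaged -0.79 and -0.97. Pcna, the sliding clamp, was among the most even genes, from -0.82 to -0.31 with a mean of -0.60 ± 0.18 (adjusted p = 0.000797, short of the size minimum). Fen1, the flap nuclease, averaged -0.75, and Lig1, the ligase that seals the fragments, averaged -0.27 (adjusted p = 0.082).

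Nucleotide supply genes were called lower in 3 of 4 cases, with a median of -1.15. Tyms, thymidylate synthase, had -1.32, -1.87 and -0.56 in the day 15 tumors and -1.32, -1.75 and -1.33 in the day 10 tumors. It was 2.56-fold lower in tumors (mean log2 ratio -1.36 ± 0.46, adjusted p = 0.000441), and a second bright probe differed from this one by 0.05. Tk1, the thymidine kinase of the salvage route, averaged -1.17 ± 0.29 (adjusted p = 0.00016). The subunits of ribonucleotide reductase differed in size. Rrm1, the large subunit, averaged -1.13 ± 0.32 (adjusted p = 0.000273) and Rrm2, the small subunit, -0.62 ± 0.26 (adjusted p = 0.00125), which did not reach the size minimum. Tyms and Rrm1 each had another probe more than 1 log2 unit away from the one used, and both of those probes were above background on no array.

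Ccne2, a cyclin E gene of the pair that activates Cdk2 at the G1/S border, had the lowest ratio of all 39 genes. It stood at -3.19, -4.28 and -2.25 in day 15 tumors and at -2.72, -3.22 and -2.77 in day 10 tumors. All values were below -2, and the mean was 8.41-fold lower than the reference (log2 ratio -3.07 ± 0.69, adjusted p = 6.47e-05). A second probe averaged -2.59. The other cyclin E gene, Ccne1, had -0.90, -1.32 and -0.25 in day 15 tumors and -0.89, -0.97 and -0.63 in day 10 tumors, with a mean of -0.83 ± 0.36 (adjusted p = 0.00186) that was short of the size minimum. Ccne2 minus Ccne1 was -2.25 ± 0.39 and below 0 in 6 of 6 tumors; the pair was chosen after the values were seen. E2f1, the E2F family member that activates many replication genes, had 0.51, 0.64 and 0.47 in day 15 tumors and 0.74, 0.76 and -0.15 in day 10 tumors. Its mean was 0.50 ± 0.34 (adjusted p = 0.0131), with the negative value on the array of tumor 312, in the area of lost signal. That direction depends on the processing: its second probe averaged -0.05, and the mean was -0.10 with median centring of each array.

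Other genes of the pathway were listed separately, and their counts stand beside the 9.75% called lower and 25.5% called higher over all genes. Of 29 further replication genes tested, 8 (27.6%) were called lower and 0 higher (median log2 ratio -0.76), led by the exonuclease Exo1 at -2.64 ± 0.85 (adjusted p = 0.000311). Of 24 mitosis genes, 19 (79.2%) were called lower and 0 higher (median -1.31), with the checkpoint genes Bub1 at -2.48 ± 0.85 (adjusted p = 0.00042) and Mad2l1 at -2.40 ± 0.80 (adjusted p = 0.000395). Further G1/S regulators were mixed, with 6 of 18 lower (33.3%) and 3 higher (16.7%) and a median of -0.74. The D-type cyclin Ccnd2 was higher at 3.83 ± 0.31 (adjusted p = 1.09e-06), and Skp2, which targets Cdk inhibitors for degradation, was lower at -1.79 ± 0.52 (adjusted p = 0.000232). Among 7 inhibitors of cyclin-dependent kinases, 2 were lower (28.6%) and 1 was higher (14.3%), and the median was 0.36, against 0.22 over all genes. Cdkn1c (p57) was higher at 4.24 ± 0.65 (adjusted p = 5.12e-06) and Cdkn2b (p15) lower at -2.37 ± 0.45 (adjusted p = 3.64e-05). Genes of nucleotide turnover outside the 39 split as 4 of 8 lower and 2 higher, with a median of -0.37, and included the thymidylate kinase Dtymk at -1.89 ± 0.42 (adjusted p = 7.60e-05) and Samhd1, which degrades dNTPs, at 1.72 ± 0.43 (adjusted p = 1.40e-05).

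The low position of the replication genes was found under each scaling, but the number called was not the same. With the scanner's processed signals, 27 of the 39 genes were called lower and 19.8% of all genes were. With median centring without loess, 36 were lower against 28.1% of all genes. The share of calls that were higher, over all genes, was 72.3% with loess, 57.9% with the processed signals and 41.4% with median centring. The median of all genes moved with the scaling (0.22, -0.02 and -0.34), so the distance of the replication genes' median from it is given as well: -1.19, -1.17 and -1.53. In each of these scalings 37 of the 39 genes lay below the median of all genes, and Prim2 and E2f1 above it.

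**Figure D2:**
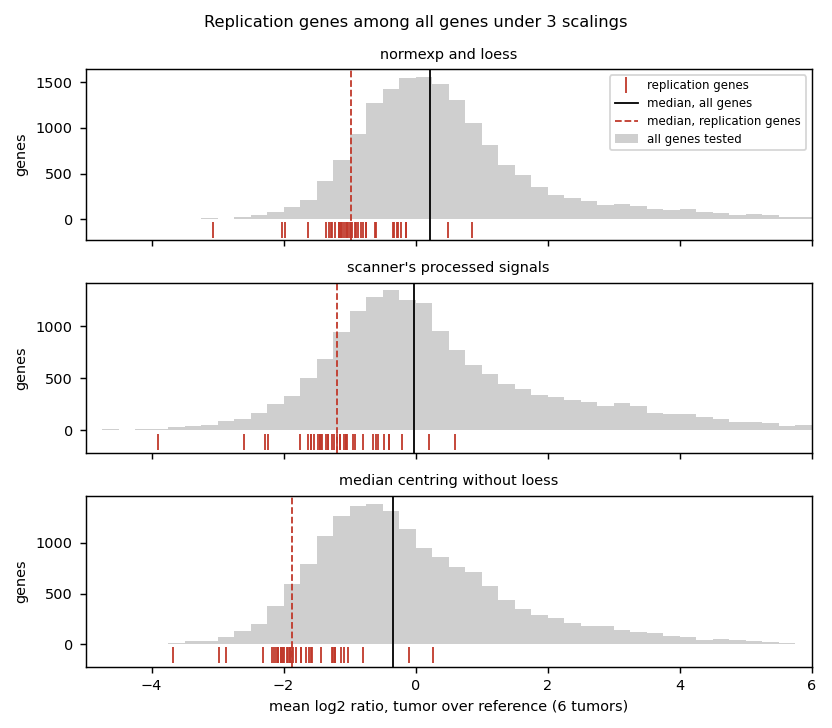
Mean log2 ratio of tumor over reference (horizontal axis) for all genes tested (grey bars, number of genes in bins of 0.25) and for the 39 replication genes (red ticks) under 3 scalings. The solid line is the median of all genes (0.22, -0.02 and -0.34 from top to bottom) and the dashed line that of the replication genes (-0.97, -1.19 and -1.87), which lies to the left in each panel.

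Promoter sequence was looked at because most of these genes are known targets of E2F transcription factors. The windows are those of RefSeq on GRCm38.p6, from 250 bases before to 50 bases after each gene's start, and 31 of the 39 genes had one or more, 36 windows in all. The pattern TTTNNCGC, which covers the usual E2F site, was searched on both strands and found in 36.1% of the genes' windows and in 5.17% of all 32851 windows. The NF-Y pattern CCAAT was found in 55.6% against 37.4%, and TTTGAA, the pattern of the cell-cycle homology region, in 8.33% against 17.9%. In 1 of the genes' windows a match of TTTNNCGC overlapped one of CCAAT. The 13 genes with a TTTNNCGC match had a median log2 ratio of -0.96 and 6 were called lower, and the 18 genes with windows and no match had a median of -0.997 and 9 were called lower. A match is a description of these letters, not a site of binding. The windows printed here are those of Mcm6 (chr1:128359656-128359955, minus strand), which held the most matches, of Mcm3 (chr1:20820263-20820562, minus strand) and Mcm5 (chr8:75109259-75109558, plus strand), which held 2 each at ratios of -1.04 and -0.15, and of Prim1 (chr10:128014965-128015264, plus strand), which held 0 at a ratio of -2.02. Each reads 5′ to 3′ on the gene's strand, and capitals mark TTTNNCGC or its reverse complement; where the capitals run longer, a match on each strand overlaps the other.
Mcm6: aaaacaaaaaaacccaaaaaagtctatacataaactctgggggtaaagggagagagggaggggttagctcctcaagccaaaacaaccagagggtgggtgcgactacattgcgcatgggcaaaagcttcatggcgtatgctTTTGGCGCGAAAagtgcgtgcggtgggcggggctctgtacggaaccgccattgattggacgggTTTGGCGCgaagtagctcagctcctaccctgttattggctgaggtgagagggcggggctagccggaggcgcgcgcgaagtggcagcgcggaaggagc
Mcm3: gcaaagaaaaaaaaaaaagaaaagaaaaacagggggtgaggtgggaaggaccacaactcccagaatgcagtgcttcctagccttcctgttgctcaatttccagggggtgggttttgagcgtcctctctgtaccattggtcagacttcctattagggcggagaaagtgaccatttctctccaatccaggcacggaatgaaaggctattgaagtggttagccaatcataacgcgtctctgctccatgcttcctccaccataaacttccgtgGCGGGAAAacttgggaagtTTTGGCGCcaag
Mcm5: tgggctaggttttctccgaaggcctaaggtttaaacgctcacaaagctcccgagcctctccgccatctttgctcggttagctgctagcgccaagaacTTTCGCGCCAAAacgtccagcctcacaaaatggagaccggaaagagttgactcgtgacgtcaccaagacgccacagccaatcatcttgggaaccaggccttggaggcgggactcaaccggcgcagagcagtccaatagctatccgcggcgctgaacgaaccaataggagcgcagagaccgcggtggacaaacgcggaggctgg
Prim1: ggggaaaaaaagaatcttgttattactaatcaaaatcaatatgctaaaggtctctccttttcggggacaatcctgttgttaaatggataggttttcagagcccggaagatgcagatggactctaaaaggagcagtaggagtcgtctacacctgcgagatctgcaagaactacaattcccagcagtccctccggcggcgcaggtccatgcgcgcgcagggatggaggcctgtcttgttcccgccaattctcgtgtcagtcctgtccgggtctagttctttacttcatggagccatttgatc

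The replication genes differed between tumors in a shared order. Their median log2 ratio was -0.81, -1.65 and -0.40 in day 15 tumors 303, 313 and 318, and -0.92, -1.12 and -0.68 in day 10 tumors 302, 307 and 312. Of the 38 genes with a value in all tumors, 33 (86.8%) were lowest in tumor 313 and 34 (89.5%) were highest in tumor 318, against 30.4% and 21.8% of all genes tested. For 32 genes both held, and tumor 307 was second lowest for 33. The number of genes at or below -1 was 15, 28 and 6 in tumors 303, 313 and 318, and 17, 25 and 6 in tumors 302, 307 and 312. Leaving out the 7 genes in the area of lost signal, 28 of 31 were lowest in tumor 313 and 30 of 31 highest in tumor 318. The exceptions included Rfc2, lowest in tumor 302 by the probe used and in tumor 307 by its second probe. Others were Orc2, lowest in tumor 318, and Prim2, highest in tumor 313.

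Both extremes were day 15 tumors, so that the spread among day 15 tumors was the wider one for 35 of the 39 genes. The SD of a gene had a median of 0.53 among day 15 tumors and 0.22 among day 10 tumors. Over all genes tested these medians were 0.31 and 0.15, and 78.9% of genes had the larger SD at day 15. The widest example was Rfc3, a loader subunit, with -0.73, -2.21 and 0.08 in day 15 tumors and -0.69, -0.91 and -0.29 in day 10 tumors.

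Part of the order was seen in the tumor channel. There, tumor 313 was lowest and tumor 318 was high, but tumor 312 was highest and tumors 302 and 303 changed places. For the 32 genes outside the area of lost signal, the Cy5 signal deviated from each gene's mean by a median of -0.66 in tumor 313 and 0.45 in tumor 318 on the log2 scale, while the Cy3 signal of the same arrays deviated by -0.08 and -0.03. On the array of tumor 312 both channels were above their means, Cy5 by 0.61 and Cy3 by 0.29, so for that tumor only the ratio can be read. Tumor 313 had the lowest median of the replication genes under all 3 scalings, -1.65 with loess, -1.95 with processed signals and -2.71 with median centring. The highest was that of tumor 318 under the first 2, at -0.40 and -0.58, and that of tumor 312 with median centring, at -1.43 against -1.50 in tumor 318. With median centring the median of all genes was -0.17 in tumor 312 and -0.58 in tumor 318. The replication genes' median thus lay closer to that of all genes in tumor 318 than in tumor 312.

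Of the other gene lists, those of further replication genes, further G1/S regulators, and hepatoma and liver gave the same order of tumors. The list of mitosis genes differed from it only in tumors 302 and 303. Further replication genes had medians of -0.60, -1.14 and -0.42 in tumors 303, 313 and 318, and of -0.73, -0.92 and -0.51 in tumors 302, 307 and 312. Further G1/S regulators had -0.43, -1.21 and -0.30, and -0.58, -0.67 and -0.40 in the same tumors. The mitosis genes had medians of -1.23, -2.17 and -0.52 in tumors 303, 313 and 318, and of -1.22, -1.65 and -0.89 in tumors 302, 307 and 312. Hepatoma and liver genes had medians of 2.45, -2.14 and 3.25 in the day 15 tumors, and of 2.36, 2.23 and 2.86 in the day 10 tumors. By this list, tumor 313 stood far below the rest. The list's summed Cy5 signal was 104402 in tumor 313, against 1007310 and 1309840 in the other day 15 tumors and 974094 to 1275610 in the day 10 tumors. Alpha-fetoprotein, Afp, a marker of the hepatoma line, was at -4.75 in tumor 313, against 2.22 and 3.25 in the other day 15 tumors and 2.23 to 2.86 in the day 10 tumors. Macrophage genes were highest in tumor 313, with list medians at 6.05, 6.18 and 5.53 in tumors 303, 313 and 318, and at 5.73, 5.64 and 5.02 in tumors 302, 307 and 312. So were fibroblast and matrix genes, with 6.61, 6.98 and 6.46, and 6.34, 6.42 and 6.22 in the same order of tumors. Adipocyte genes had medians of 5.22, 5.47 and 0.81 in the day 15 tumors, and 2.53, 2.86 and 0.03 in the day 10 tumors. Only 4 adipocyte genes were tested, and their summed Cy5 signal was 827 in tumor 318 but 72161 in tumor 312, against 77518 to 347214 in the other tumors. These 3 lists gave neither the order of the replication genes nor its reverse. The part of these cells in the order of the replication genes was not tested. With tumor 313 left out, 13 of the 39 genes were called lower than the reference, and with tumor 318 left out 23 were.

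**Figure D3:**
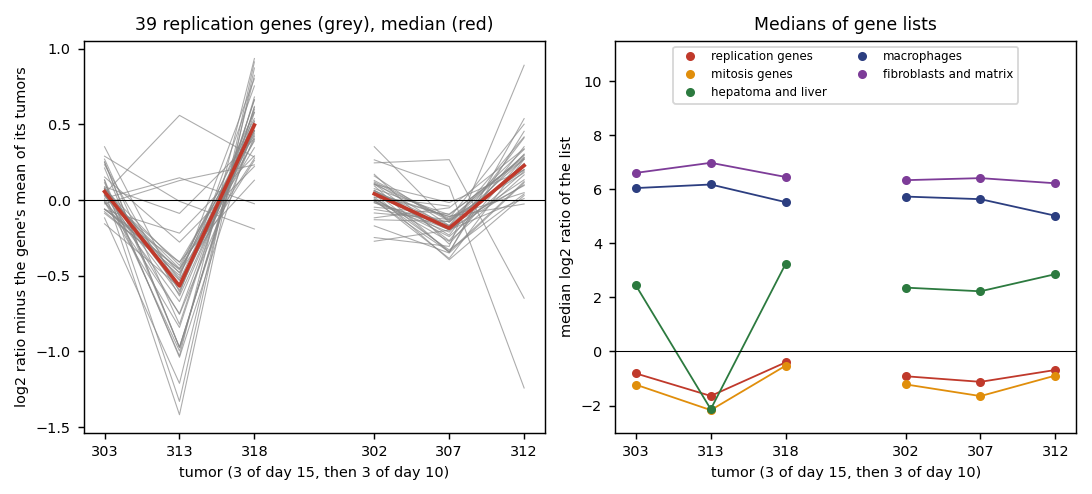
Left, log2 ratio of each replication gene minus that gene's mean (grey lines) and the median of these (red) in the 3 day 15 tumors and then the 3 day 10 tumors; most lines dip at tumor 313 and peak at tumor 318. Right, median log2 ratio of tumor over reference of the replication genes and 4 other lists in the same tumors; hepatoma and liver genes fall to -2.14 in tumor 313, where the replication genes are at -1.65.

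The second comparison set day 15 tumors against day 10 tumors. For the replication genes no difference passed: 0 of 39 were called higher and 0 lower (limma, Benjamini-Hochberg over 15804 genes), where 0.0127% of all genes tested were called higher and 0.0443% lower. At an unadjusted p under 0.05, 0 of 39 passed against 3.87% of all genes. The values of the days overlapped for all 39 genes, while they were apart for 9.14% of all genes. Changes ran from -0.34 to 0.59 with 17 positive and 22 negative. Their median was -0.05, against 0.02 over all genes. All day 15 arrays lay on 1 slide and all day 10 arrays on another, so slide and day cannot be told apart.

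The smallest p belonged to Prim2, with a change of 0.59 (95% interval -0.41 to 1.59, unadjusted p = 0.201, adjusted p = 0.999 in limma), which was 0.12 without tumor 312. Rrm2, the small reductase subunit, averaged -0.48 ± 0.25 in day 15 tumors and -0.75 ± 0.23 in day 10 tumors (SD, n = 3 each), a change of 0.27 (interval -0.21 to 0.75). Rfc2 changed by 0.22 (interval -0.18 to 0.63) and Tyms by 0.22 (interval -0.62 to 1.05). Ccne2 averaged -3.24 ± 1.02 at day 15 and -2.90 ± 0.28 at day 10, a change of -0.34 with a wide interval (-1.54 to 0.87). Mcm2 changed by -0.27, Rpa1 by -0.22 and Pole2 by -0.19. None of these 8 genes passed, each having an adjusted p of 0.999 in limma, and the signs of Rrm2, Rfc2, Tyms, Rpa1, Pole2, Ccne2 and Mcm2 turned under at least one other setting. Median centring, under which Rrm2, Rfc2 and Tyms turned, had a median change of -0.30 over all genes.

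The intervals set what these tumors could show. Their width either side of the change ran from 0.40 to 1.44 log2 units (median 0.72), and the intervals of 25 genes stayed within 1 log2 unit of no change. These are unadjusted intervals of single genes, and a call after adjustment over all genes tested needed a change beyond this width. The median change depended on single tumors, at 0.24 without tumor 313, 0.07 without tumor 312 and -0.29 without tumor 318. In the tumor channel alone, 0 of the 39 genes had an unadjusted p under 0.05 (464 of all genes did, and 0 were called), and in the reference channel 0 did (222 of all genes did, and 0 were called). Skeletal muscle genes moved with the days, with a summed Cy5 signal of 859 to 2076 in day 15 tumors and 26501 to 227542 in day 10 tumors. All 7 were lower at day 15 and 5 of them were called, where 0.0443% of all genes tested were called lower. Myh4 and Ckm were above background on 3 of the 6 arrays. Red blood cell genes were apart between the days for 4 of 4 genes tested and endothelial genes for 4 of 7, against 9.14% of all genes. These were all higher at day 15 and none was called. The part of these cells in the day values of the replication genes was not tested.

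**Figure D4:**
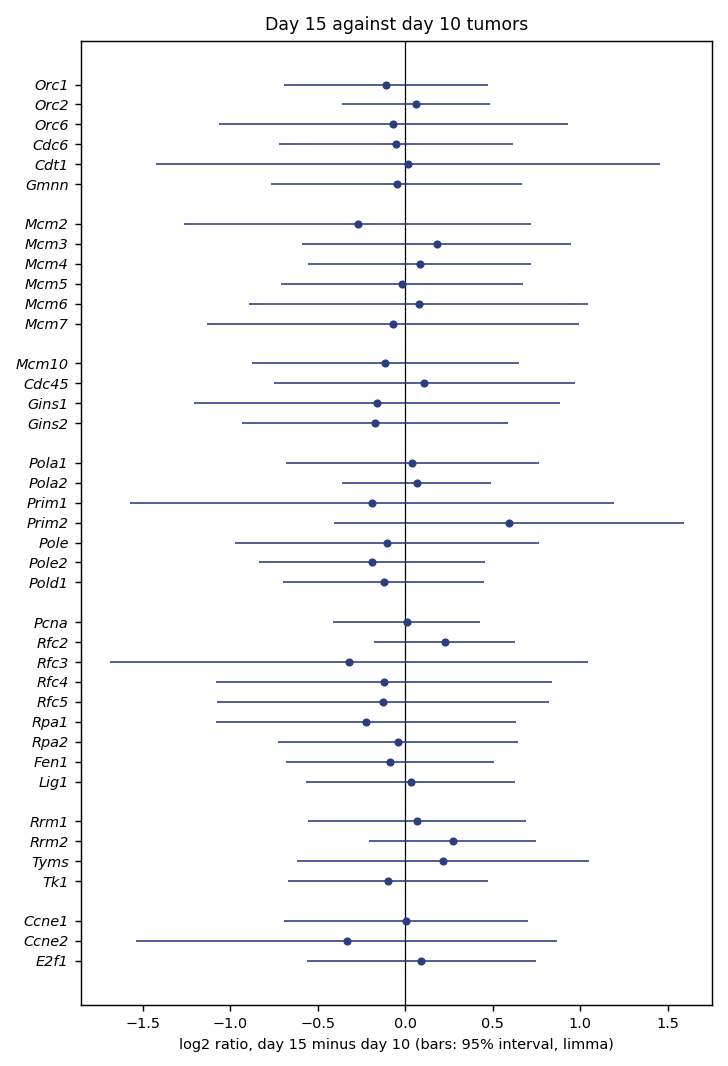
Change in log2 ratio between day 15 and day 10 tumors (day 15 minus day 10, 3 tumors each) for the 39 replication genes, with 95% intervals from limma as bars. Changes lie between -0.34 and 0.59, and every interval crosses 0.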

How the data were processed

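RNA of 6 tumors was measured against 1 reference on two-colour arrays. The deposited scanner files were made with Agilent Feature Extraction 9.1.3.1, per the file headers, and hold unnormalized mean and local background intensity per spot and dye. Per the file headers, its processed intensity was background-subtracted, spatially detrended and dye-normalized with LOWESS, and the deposited log ratio is its log10 ratio of Cy5 to Cy3. The value table deposited by the authors held the same log10 ratios, with a difference of 0 at every spot and column medians of 0.

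In limma 3.58.1 under R 4.3.3, mean intensity was corrected with normexp (offset 50) and log2 ratios were normalized by loess within each array, with control and outlier spots at weight 0. Controls and outlier spots (45 to 71 per array) were left out. Summed Cy5 signals of gene lists were rebuilt from the loess ratios and the mean log intensity of both dyes, quantile-normalized between arrays. The Cy5 and Cy3 deviations and the tests of a single channel used the signal of that dye, quantile-normalized between arrays. Of 41174 probes, 23374 were named by accession, 6733 by current and 2919 by older symbol through a mouse RefSeq table (GRCm38.p6), and 8148 kept the array's name. Of the 39 genes, 24 had 1 probe and 15 had several, 5 probes carried an older symbol, and the probe of highest mean log intensity stood for a gene. For tumors against reference, the mean of the day means was tested against 0 on 16324 genes that 3 or more arrays showed well above background in at least 1 dye, with an absolute log2 ratio of at least 1 required. This test leaves out the reference's own spread. Days were compared on 15804 genes above background in Cy5 on at least 3 arrays. P-values are 2-sided with Benjamini-Hochberg adjustment over all genes tested. The number of arrays limits the precision.

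The 39 genes, the lists and the alternatives were chosen with earlier results of these data known. The genes named per role were the 2 lowest and 2 highest ratios, for the days the 8 smallest p, and per other list the 2 largest absolute ratios; other members are named to account for the whole role, and pairs and the exceptions to the tumor order were chosen after values were seen. Alternatives covered background correction, scaling, filter, probe choice, the area of lost signal, the tumor channel alone, the size minimum and each tumor left out. The area of lost signal was found from the Cy3 signal of the array of tumor 312. Probe sequences are not used here, and 1 gene that the rule names is not reported here.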

Additional observations from a re-analysis of the deposited data

Results flagged for a closer look

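Over the 6 tumors, 38 replication genes could be examined for a single tumor far from the others, by Dixon's 95% limit on the gap to the nearest value over the range, which chance alone exceeds in about 1 of 20 groups. Prim2 had a log2 ratio of -0.39 in day 10 tumor 312, while its other values ran from 0.89 to 1.41, a gap of 0.713 of the range. E2f1 had -0.15 in the same tumor, while its other values ran from 0.47 to 0.76, a gap of 0.682 of the range. Both probes lie in the area of lost signal on that array, and the part of that area in the values was not tested.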

How the results depend on the processing

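Of the 18 replication genes called lower than the reference, 12 were called in every alternative in which they were tested. Rpa1, among these, was not tested on probes above background on all 6 arrays. A negative mean was kept in every setting by 37 of the 39. The count of 18 became 36 with median centring, where the median of the 39 was -1.87 and 4594 genes in all were lower, and 33 without the size minimum, where 2 were higher and, over all genes, 7919 were higher and 5223 lower. All genes lower were 3232 with processed signals and 3228 with the authors' value table. Of the replication genes, 1 was called higher with the area of lost signal left out. Leaving out each tumor gave 13 to 23 lower and 0 to 1 higher, medians of -1.12 to -0.75, and over all genes 1334 to 1821 lower and 4006 to 4345 higher. The ratio of E2f1 reversed to -0.10 with median centring and -0.045 on probes above background on all 6 arrays. Between the days, leaving out each tumor gave 0 replication genes called, a median change of -0.29 to 0.24, and over all genes 0 to 3 higher and 2 to 24 lower. All genes higher were 1 with processed signals, 1 with the value table and 1 on probes above background on all 6 arrays, where 0 were lower, and in the tumor channel alone 0 were higher and 0 lower. Day changes reversed with median centring for Rrm2 (-0.090), Rfc2 (-0.15) and Tyms (-0.15), with the area of lost signal left out for Rpa1 (0.16), and in the tumor channel alone for Rfc2 (-0.031) and Rpa1 (2.07). With median centring the median change of all genes was -0.30, against 0.02 with loess, and Rrm2, Rfc2 and Tyms lay above it. Leaving out each tumor, the change of Pole2 ran from -0.46 to 0.047, of Ccne2 from -0.83 to 0.19 and of Mcm2 from -0.59 to 0.18, each positive without tumor 313, of Rpa1 from -0.43 to 0.16, positive without tumor 312, and of Tyms from -0.13, without tumor 318, to 0.53. The cause of these shifts was not tested. No paired analysis was possible because the tumor numbers are not shared between the days, and the slide could not serve as a block because each slide held 1 day. In the tumor channel, 35 of the 39 genes were above background on all 6 arrays, and whether signal limited the calls was not tested.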
